A study of Mus musculus with 8 samples.

Results

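Adipokines are proteins that fat tissue releases into the blood or into its own surroundings. The genes described here are 9 adipokine genes of mouse gonadal white fat: Lep, Adipoq, Retn, Cfd, Rbp4, Nampt, Apln, Rarres2 and Retnla. They were chosen by name, as all probe sets whose gene symbol in the platform annotation is exactly 1 of these. No cutoff on measured values was used, but earlier results of these data were known when the genes were chosen. The annotation held 8 of the 9 genes with 12 probe sets, out of 18193 genes and 45037 probe sets; Cfd (adipsin) had no probe set under its symbol in the annotation used and was not analysed here. Nampt and Rarres2 had 3 probe sets each and the other 6 genes had 1 each.

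The study set gonadal adipose tissue of aP2-Pex5 -/- mice against the same tissue of mice labelled wild type, all aged 10 weeks and, per the series' design text, of Swiss background for the controls. There were 4 knockout arrays (labelled 6, 8, 9 and 10) and 4 control arrays (labelled 1, 2, 3 and 4), 1 sample per array. Pex5 is the receptor that carries enzymes into peroxisomes, and the submitters describe the knockout mice as lacking functional peroxisomes in fat. The aP2 promoter is that of Fabp4, a fatty acid carrier of adipocytes whose expression is also known in macrophages, so the deletion follows the cells in which that promoter is active; the labels give neither the sex of the mice nor whether each array was a separate animal.

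The values are log2 signals, so a difference of 1 is a doubling of signal. The median of an array ran from 6.44 to 6.52, and the highest value in the table was 14.83. Adipocyte genes were bright in both groups, with Fabp4 at 14.77 ± 0.03 on knockout arrays and 14.77 ± 0.03 on control arrays (SD, n = 4 each). The brightest Pex5 probe set lay between 9.27 and 9.50 on knockout arrays and between 9.06 and 9.58 on control arrays; the labels do not say which part of the gene was deleted, so this probe set does not check the genotype. Liver genes were high on control 1, where the mean of the 11 measured liver markers stood 3.01 above its mean over all arrays, and neutrophil genes were high on control 4, where the mean of 9 markers stood 1.64 above. Knockout 8 stood 1.94 above the mean in 7 markers of epididymis and vas deferens, knockout 6 stood at -0.93 in 9 mesothelial markers and control 3 at -0.78 in 8 markers of ovary, oviduct and uterus. These 8 did not move together on control 3. Greb1 (4.92) and Esr1 (9.77) were at their lowest there, but Foxl2 (7.23) was above every knockout. The lists named for knockouts 8 and 6 were mixed too. On knockout 8 Lcn8 read 11.02, but Spink2 (6.13) was below every control. On knockout 6 Upk3b (8.43) was at its lowest, but Krt8 (10.37) and Krt18 (9.66) were above controls 2 and 3. The part of these genes in the adipokine values was not tested.

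Leptin, adiponectin and resistin are the classical hormones of the fat cell. Leptin is made in proportion to fat mass and acts on the hypothalamus to lower food intake; adiponectin, the most abundant protein that adipocytes secrete, raises insulin sensitivity in liver and muscle; resistin, in mice an adipocyte product, opposes insulin action. Retinol binding protein 4, chemerin (Rarres2), apelin and the NAD-making enzyme Nampt, also called visfatin, are made in fat and in other organs as well. Retnla encodes resistin-like molecule alpha, a relative of resistin best known as a marker of alternatively activated macrophages.

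The proximal promoters of Lep and Retnla are shown because both genes had a wide spread between arrays and because regulators known from mouse cells act close to their start sites, C/EBP alpha on Lep and STAT6 and C/EBP on Retnla. Each window holds 250 bases before the RefSeq start of the gene to 50 bases after it, on GRCm38.p6, plus strand, at chr6:29059971-29060270 for Lep and chr16:48842359-48842658 for Retnla. Capitals mark matches to TTGCNNAA (the core of a C/EBP site), TTCNNNNGAA (a STAT-type palindrome) and TATAA, each searched on both strands.
Lep: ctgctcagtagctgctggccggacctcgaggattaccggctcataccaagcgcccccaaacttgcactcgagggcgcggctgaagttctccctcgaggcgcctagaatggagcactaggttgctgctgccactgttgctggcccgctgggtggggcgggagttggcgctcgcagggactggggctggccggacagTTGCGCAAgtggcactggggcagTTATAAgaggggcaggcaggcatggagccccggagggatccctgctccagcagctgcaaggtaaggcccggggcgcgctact
Retnla: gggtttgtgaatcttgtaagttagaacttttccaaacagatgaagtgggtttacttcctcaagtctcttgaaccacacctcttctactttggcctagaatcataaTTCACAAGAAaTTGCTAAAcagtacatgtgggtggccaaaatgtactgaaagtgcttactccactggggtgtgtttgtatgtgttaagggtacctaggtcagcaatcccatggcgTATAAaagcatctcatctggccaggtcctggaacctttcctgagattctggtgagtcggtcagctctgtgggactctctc
In Lep the C/EBP core started 55 bases before the start of the gene, and in the capitals nearest the start TATAA overlapped its own reverse-strand form. In Retnla the STAT palindrome started 145 bases before the start and the C/EBP core 134 bases before it. The C/EBP core was present in 10.8% of 32851 promoter windows of this length, the STAT palindrome in 6.95% and TATAA in 24.9%, so such matches are common and are given as a description only. The table had windows for 7 of the 8 genes; among these the C/EBP core was in 3 (Lep, Rbp4 and Retnla), the STAT palindrome in 2 (Rbp4 and Retnla) and TATAA in 3 (Lep, Rbp4 and Retnla).

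None of the 8 adipokines differed between knockout and control beyond the spread between arrays. Over all genes the share past a limma adjusted p of 0.05 was 0%, and 0 of the 8 adipokines passed. At an unadjusted limma p under 0.05 there were 0 of 8, where 2.56% of all genes lay, and the groups were separated without overlap in 0 of 8, where 1.7% of all genes were. The knockout mean was lower for 6 of the 8 and higher for Lep and Apln, beside 53.3% of all genes with a lower knockout mean. The median difference (knockout minus control) over the 8 was -0.10 on the log2 scale, beside -0.0082 over all genes.

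**Figure D1:**
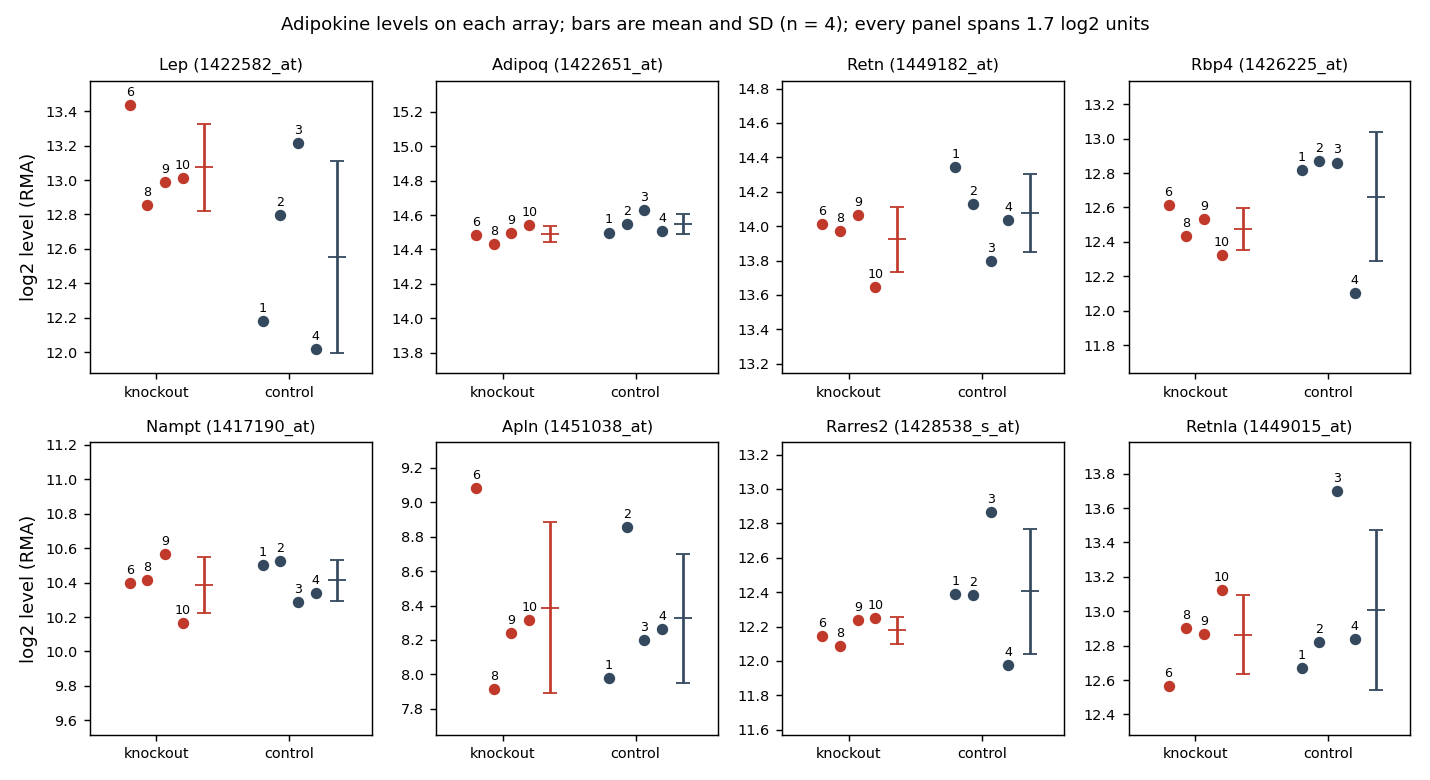
Log2 level of each adipokine (vertical axis, brightest probe set) on the 4 knockout arrays (red, left) and 4 control arrays (blue, right), with the array's number above each point and the mean and SD of each group as a bar; every panel spans 1.7 log2 units. The groups overlap in all 8 panels, Adipoq is the tightest, and single control arrays (3 for Retnla, 4 for Rbp4) stand away from the rest.

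Leptin had the largest difference of the 8. Lep read 13.44, 12.86, 12.99 and 13.01 on knockout arrays 6, 8, 9 and 10, against 12.18, 12.80, 13.22 and 12.02 on control arrays 1, 2, 3 and 4. All 4 knockouts lay above the control mean, but control 3 was above every knockout except knockout 6. The means were 13.07 ± 0.25 in knockout and 12.55 ± 0.56 in control (SD, n = 4 each), a difference of 0.52 (95% interval -0.08 to 1.12), or 1.44-fold (0.945 to 2.18), with a limma adjusted p of 0.999. The lowest arrays were controls 1 and 4, which are also those with liver or neutrophil genes at their highest; the part of these genes in the Lep values was not tested. For pyruvate carboxylase, an Affymetrix RNA integrity control, the 3' signal exceeded the 5' signal by 3.97 on control 1 and 4.83 on control 4, and by 4.65 on knockout 9, where Lep read 12.99. With this measure as a covariate the Lep difference was 0.41. Without control 3 the groups no longer overlapped and the difference was 0.74 (0.25 to 1.24; limma adjusted p = 0.9997), where 4% of all genes were without overlap.

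Adiponectin was the steadiest of the set. Adipoq read 14.48, 14.43, 14.50 and 14.54 on the knockout arrays and 14.50, 14.55, 14.63 and 14.51 on the control arrays. The values of all 8 arrays fell within a narrow band, and all 4 knockouts lay below the control mean. The means were 14.49 ± 0.05 in knockout and 14.55 ± 0.06 in control (SD, n = 4 each), a difference of -0.06 (-0.20 to 0.09), or 0.962-fold with an interval of 0.871 to 1.06. Without knockout 10 the groups did not overlap, as was so for 2.75% of all genes, at a difference of -0.07 (-0.24 to 0.09; limma adjusted p = 0.9999). The signal lay close to the top of the table, where a change of transcript level may be compressed; whether it was here was not tested.

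Resistin was likewise bright and slightly lower on average in knockout. Retn read 14.01, 13.97, 14.06 and 13.65 on the knockout arrays and 14.34, 14.13, 13.80 and 14.04 on the control arrays. Knockout 10 was the lowest array and control 1 the highest, and the other 6 arrays were interleaved. The difference was -0.15 (-0.46 to 0.16), 0.899-fold (0.725 to 1.11), at a limma adjusted p of 0.999. Without knockout 10 it was -0.06, and without control 1 also -0.06.

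Rbp4, the carrier of retinol in blood, was lower in knockout than on 3 of the 4 control arrays. It read 12.61, 12.43, 12.53 and 12.33 on the knockout arrays, against 12.82, 12.87, 12.86 and 12.10 on the control arrays. Controls 1, 2 and 3 were all above every knockout and control 4 was below every knockout. The difference was -0.19 (-0.59 to 0.22; limma adjusted p = 0.999), 0.879-fold. Without control 4 it was -0.37 (-0.57 to -0.17) at a limma adjusted p of 0.552; there the groups did not overlap, as was so for 8.1% of all genes. Control 4 also had the lowest mean of the 17 adipocyte identity genes, 0.31 below its mean over all arrays. Knockouts lay between -0.10 and 0.09 and the other controls between 0.10 and 0.19. The list did not move together on control 4. Gpd1 (11.06), Agpat2 (11.59) and Pparg (11.38) were at their lowest there, but Cd36 (14.18), Pnpla2 (13.05) and Aqp7 (10.57) were above every knockout. Control 4 also had the largest 3' excess of pyruvate carboxylase, the RNA integrity control, at 4.83. The excess was 4.65 on knockout 9, where Rbp4 read 12.53, and 3.97 on control 1, where Rbp4 read 12.82. With this measure as a covariate the Rbp4 difference was -0.24. In whole tissue, fewer adipocytes, less RNA per adipocyte and RNA quality cannot be told apart here, and their part was not tested. Rbp4 is also a liver product, and on control 1, with its high liver markers, it read 12.82, beside 12.87 and 12.86 on controls 2 and 3.

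Chemerin, a chemoattractant for macrophages and dendritic cells that also affects fat cell differentiation, followed a similar course. Rarres2 (probe set 1428538_s_at) read 12.14, 12.09, 12.24 and 12.25 on the knockout arrays, against 12.39, 12.38, 12.87 and 11.98 on the control arrays. The knockouts were tightly grouped, with an SD of 0.08, between control 4 below and controls 1, 2 and 3 above; the control SD was 0.36. The difference was -0.22 (-0.61 to 0.16; limma adjusted p = 0.999), 0.856-fold. A further bright probe set, 1437902_s_at, differed by -0.22 and the dim 1425091_at by -0.15 (-0.57 to 0.28). The _s_at suffix marks probe sets that can bind more than 1 transcript; the bright pair followed each other across the 8 arrays with a Pearson r of 0.992, and the dim probe set followed the brightest with an r of 0.875. Without control 4 the difference of the brightest was -0.37 (-0.67 to -0.06; limma adjusted p = 0.552) with no overlap, as was so for 8.1% of all genes, and without control 3 it was -0.07. With the RNA integrity measure as a covariate the difference was -0.27.

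Nampt, the rate-limiting enzyme of NAD salvage, differed in sign between its probe sets. The brightest, 1417190_at, read 10.40, 10.41, 10.56 and 10.17 on the knockout arrays and 10.50, 10.53, 10.29 and 10.34 on the control arrays, a difference of -0.03 (-0.26 to 0.20). Probe set 1455320_at read 9.76, 9.83, 9.88 and 9.71 on the knockout arrays and 9.66, 9.74, 9.63 and 9.72 on the control arrays, a difference of 0.11 (-0.05 to 0.26). The third, 1448607_at, differed by 0.03 (-0.14 to 0.21). No common direction was measured, and the brightest interval leaves room for 0.835-fold to 1.15-fold.

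Apelin, a peptide that acts on blood vessels and heart and is raised by insulin and low oxygen in fat cells, had almost the same mean in both groups and a wide spread in each. Apln read 9.08, 7.91, 8.24 and 8.31 on the knockout arrays and 7.98, 8.86, 8.20 and 8.26 on the control arrays. Knockout 6 and control 2 were high and knockout 8 and control 1 low, so the groups covered much the same range. The difference was 0.06 (-0.55 to 0.68; limma adjusted p = 0.999), and without knockout 6 it was -0.17. Its interval ran from 0.682-fold to 1.60-fold.

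Resistin-like molecule alpha was high on a single control array. Retnla read 12.56, 12.90, 12.87 and 13.12 on the knockout arrays, against 12.67, 12.82, 13.70 and 12.84 on the control arrays. Knockout 6 was below every control, knockouts 8, 9 and 10 were above controls 1, 2 and 4, and control 3 was above every other array. The difference was -0.14 (-0.66 to 0.38; limma adjusted p = 0.999) and turned to 0.09 without control 3. The mean of 14 alternatively activated macrophage markers was 0.39 above its mean over all arrays on control 3, its highest, and 0.50 below on knockout 6, its lowest. Between these extremes its order was not that of Retnla. Control 1, at 12.67 in Retnla, stood at 0.09, and knockout 8, at 12.90, stood at -0.16. The members also differed on control 3, where Lyve1 (10.77) was at its highest and Ccl8 (8.24) at its lowest. Over the groups the mean level of the 14 markers ran from 7.78 to 8.42 in knockout and from 8.09 to 8.67 in control. Of the 14 markers 10 were lower in knockout. For 18 general macrophage markers 15 were lower, and their mean level ran from 8.89 to 9.32 in knockout and from 9.14 to 9.59 in control. Of all genes 53.3% had a lower knockout mean. At an unadjusted limma p under 0.05, 3 of the 18 and 0 of the 14 were lower, beside 1.38% of all genes. None passed the adjusted threshold. The lists share Mrc1 and Cd163. The part of these markers in the Retnla values was not tested.

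**Figure D2:**
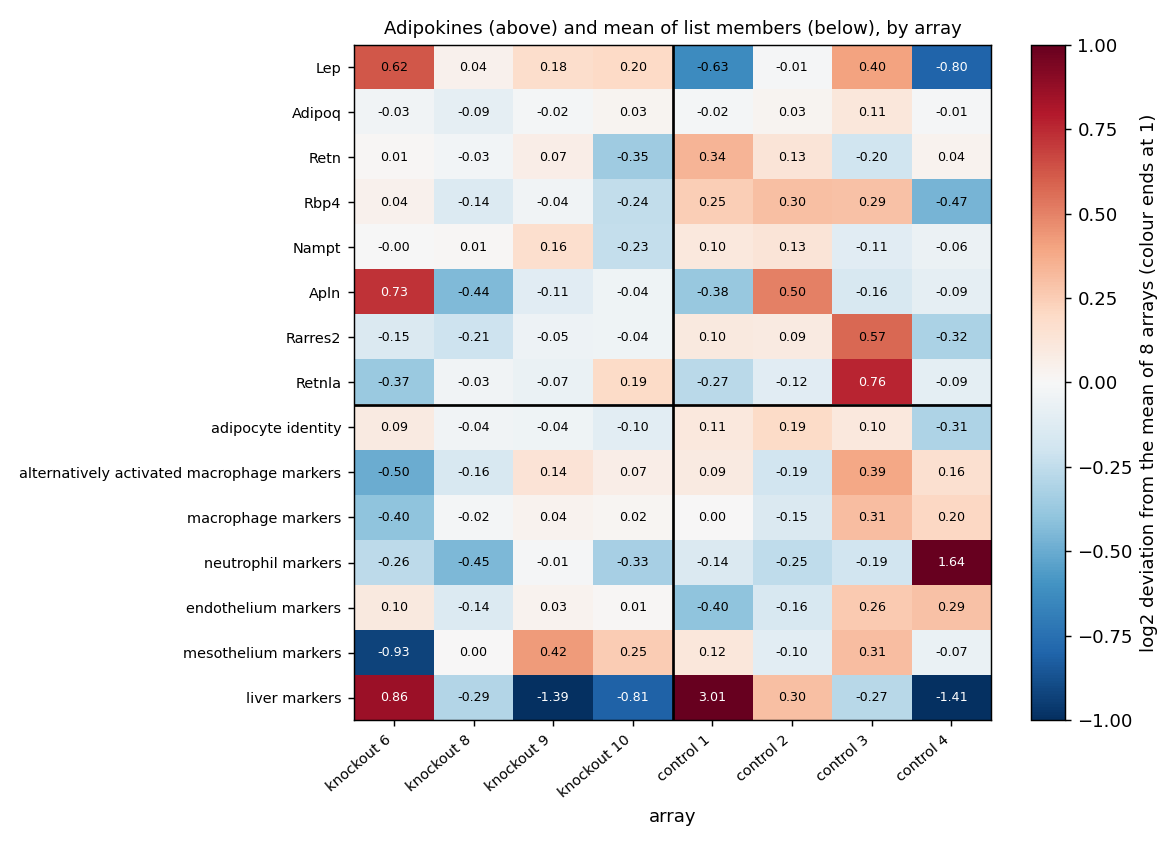
Deviation of each adipokine (upper rows) and of the mean of each marker list (lower rows) from its own mean over the 8 arrays, in log2 units, with knockout arrays left of the line and control arrays right of it; the colour ends at 1 and the printed number is the value. Rbp4, Rarres2 and the mean of the adipocyte identity genes are low on control 4, where the mean of the neutrophil markers stands at 1.64. Retnla and the means of both macrophage lists are highest on control 3.

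**Figure D3:**
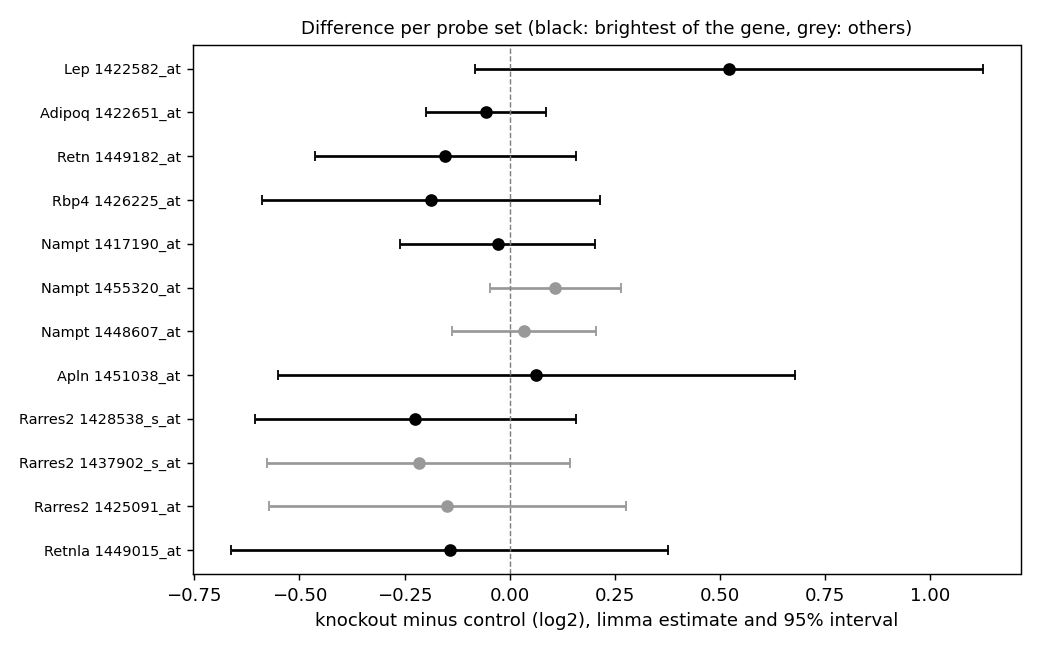
Knockout minus control on the log2 scale for all 12 adipokine probe sets, as limma estimates with 95% intervals; black is the brightest probe set of a gene and grey the others. Every interval spans 0, the narrowest is that of Adipoq (-0.20 to 0.09) and that of Lep runs from -0.08 to 1.12.

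The adipokines differed widely in how much they varied within a group. The pooled within-group SD was 0.05 for Adipoq, smaller than that of nearly all other bright genes: 3.43% of the 9096 genes above the median level had a smaller one. It was 0.43 for Lep and 0.44 for Apln, with 92.9% and 93.3% of those genes below them, and 0.37 for Retnla, with 90.1% below. Retn (0.21), Rbp4 (0.28) and Rarres2 (0.26) lay between the 69.0 and 82.3 percent marks, and Nampt (0.14) near the middle at 45.3%. The median over those genes was 0.15. Some other genes near the table's top were as tight as Adipoq. The brightest Fabp4 probe set had an SD of 0.03 in each group, and Cd36 had 0.05 in knockout and 0.03 in control. Whether compression of bright signals had a part in the small SD of Adipoq was not tested.

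The 8 genes did not all vary together across arrays. All 8 genes were read from the same samples with the same normalisation. Over the 8 arrays the highest Pearson r among the 28 pairs was 0.844, between Retn and Nampt. Adipoq and Rarres2 had 0.818, Adipoq and Retnla 0.766, Rbp4 and Rarres2 0.764 and Rarres2 and Retnla 0.733. Adipoq, Rarres2 and Retnla were all highest on control 3. Lep ran against Retn, with an r of -0.54, and Retn against Retnla, with -0.66. These are descriptions over arrays of both groups.

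The closest matches to each adipokine were picked from 9095 genes over only 8 arrays, so high values of r are given as a description. The gene most like Lep was Clip1, with a Pearson r of 0.969 over the 8 arrays, then Ryk (0.965) and Rap1gap2 (0.952). For Adipoq they were Zfp367 (0.969), Mat2b (0.964) and Gnai1 (0.952), and for Retn Fastkd1 (0.981), Stk38 (0.978) and Fiz1 (0.972). For Rbp4 they were Commd6 (0.994), Gnptab (0.987) and Pdf (0.987), and for Nampt Mapk6 (0.987), Nfrkb (0.971) and Mak16 (0.954). For Apln they were Cntln (0.932), Id1 (0.911) and Csnk1g1 (0.895), for Rarres2 Creld1 (0.973), Itgb5 (0.957) and Rnf141 (0.956), and for Retnla Wrn (0.986), Clec4a3 (0.974) and Col14a1 (0.960). None of these 24 genes passed the test between groups, at a limma adjusted p of 0.999 each.

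Receptors linked to the adipokines showed no change past the test, with 0 of 12 passing in either direction. In knockout 4 were higher and 8 lower (median -0.05). The 12 include C3ar1, the receptor of complement fragment C3a rather than of a listed adipokine, which is counted in the complement list too. Lepr, the leptin receptor, read 5.89, 6.57, 6.09 and 5.86 on the knockout arrays, against 6.53, 6.11, 7.84 and 6.66 on the control arrays, a difference of -0.68 (-1.47 to 0.11; limma adjusted p = 0.999). Control 3, the highest of the controls in Lep, was the highest in Lepr too. Cmklr1, the chemerin receptor, differed by 0.32 (-0.18 to 0.81) and Tlr4, the endotoxin receptor that has been proposed to bind resistin, by -0.25 (-0.54 to 0.04). The receptors Adipor1 and Adipor2 and the adiponectin-binding cadherin Cdh13 were among the other 9, none of which passed.

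Genes for folding and release of adiponectin in the endoplasmic reticulum gave 0 of 10 past the test, with 2 higher and 8 lower (median -0.05). Hspa5, the chaperone BiP, differed by 0.12 (-0.04 to 0.28), and the collagen-type lysyl hydroxylases Plod3 by -0.21 (-0.51 to 0.10) and Plod2 by 0.25 (-0.23 to 0.73). No member differed beyond the spread between arrays.

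The alternative complement pathway, in which adipsin acts, had 0 of 8 measured genes past the test, with 3 higher and 5 lower (median -0.08). Cfb, the factor that adipsin cleaves, read 11.07, 10.77, 11.08 and 11.26 on the knockout arrays, against 10.39, 10.46, 10.80 and 10.52 on the control arrays. Knockouts were above controls except that knockout 8 lay just under control 3, and the difference was 0.51 (0.22 to 0.79; limma adjusted p = 0.999). Masp1, a protease of the lectin pathway, read 6.81, 6.68, 6.98 and 6.48 on the knockout arrays, against 7.88, 7.66, 7.46 and 7.09 on the control arrays. There the groups did not overlap, as was so for 1.7% of all genes. The difference was -0.79 (-1.19 to -0.38, limma adjusted p = 0.999). Cfp, properdin, differed by -0.54 (-1.04 to -0.04). Counted at an unadjusted p under 0.05, 1 of the 8 was higher and 2 were lower, where 1.18% and 1.38% of all genes lay.

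Genes of retinol handling, a list that includes Rbp4, gave 0 of 19 past the test, with 10 higher and 9 lower (median 0.00944). Crabp1, a cellular retinoic acid carrier, differed by 0.91 (-0.11 to 1.94), Adh1, an alcohol dehydrogenase that oxidises retinol, by 0.56 (-0.09 to 1.22) and Aldh1a2, which makes retinoic acid, by -0.36 (-0.79 to 0.08). Genes of NAD salvage and use, including Nampt, gave 0 of 17, with 6 higher and 11 lower (median -0.07); Nmnat3, which makes NAD from the product of Nampt, differed by -0.36 (-0.76 to 0.03), Nmnat2 by 0.19 and Parp1, a nuclear consumer of NAD, by -0.09. None of these differences passed.

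Regulators of adipokine genes, among them Pparg, Cebpa and Srebf1, gave 0 of 16 past the test, with 6 higher and 10 lower (median -0.02). Foxo1, a transcription factor restrained by insulin, differed by 0.16 (-0.05 to 0.38), the glucocorticoid receptor Nr3c1 by -0.14 (-0.38 to 0.10) and Socs3, an inhibitor of leptin signalling, by -0.22 (-0.71 to 0.26). Of 17 adipocyte identity genes 6 were higher and 11 lower (median -0.02), and 0 passed; Slc2a4, the insulin-responsive glucose transporter, differed by -0.17, the fatty acid transporter Cd36 by -0.07 and the desaturase Scd1 by -0.06.

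Of 43 other secreted factors of fat, 20 were higher and 23 lower in knockout (median -0.0052), and 0 passed. Hp, haptoglobin, an acute phase protein that binds haemoglobin and is made in fat, read 14.00, 13.97, 14.09 and 14.01 on the knockout arrays, against 13.82, 13.86, 13.78 and 13.88 on the control arrays. These groups did not overlap, and the difference was small, 0.18 (0.04 to 0.32; limma adjusted p = 0.999). Il1b, an inflammatory cytokine, differed by -0.39 (-0.79 to 0.01) and Fgf21, a fasting hormone induced by peroxisome proliferator-activated receptors, by 0.29 (-0.06 to 0.64). Hp was the only one of the 43 at an unadjusted limma p under 0.05, beside 2.56% of all genes, and 1.7% of all genes had groups without overlap, so its count is near the background.

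**Figure D4:**
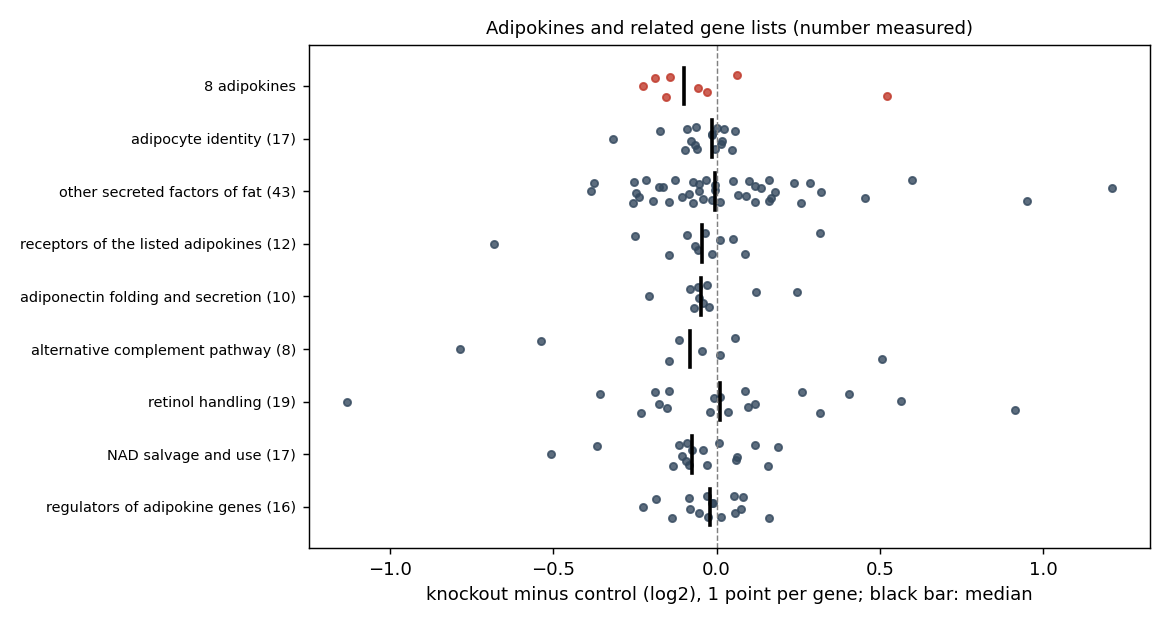
Knockout minus control (log2, horizontal axis) for the 8 adipokines (red) and for each measured gene of the related lists (blue), 1 point per gene, with the median as a black bar and the number of genes measured in brackets. The medians lie between -0.10 and 0.00944, and 0 genes in any row passed the test over all genes.

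Markers of other cells and organs that a piece of gonadal fat can hold were counted in the same way, and 0 members of any of these lists passed. In knockout, 7 of 12 fibroblast and preadipocyte markers were higher and 5 lower, 4 of 10 endothelial markers higher and 6 lower, and 3 of 9 mesothelial markers higher and 6 lower. All 9 neutrophil markers were lower in knockout, with a mean level of 5.70 to 6.13 on knockout arrays and 5.89 to 7.79 on control arrays, the top of that range being control 4. That array weighed heavily in the control means. S100a9 read 10.92 there, but 6.05 to 6.46 on the other controls and 5.36 to 6.48 on knockout arrays. Cxcr2 read 4.77 on control 4, within the knockout range of 4.43 to 5.13. Of 11 liver markers 10 were lower, with a mean level of 6.56 to 8.81 on knockout arrays and 6.54 to 10.96 on control arrays, the top being control 1. Of 5 eosinophil markers 3 were lower, and of 4 red blood cell markers 3. Of 7 markers of epididymis and vas deferens 5 were higher and 2 lower. Their mean level ran from 5.40 to 7.91 on knockout arrays and from 5.31 to 6.71 on control arrays, the top being knockout 8. On that array Lcn8 read 11.02 and Spink2 was not high. Of 8 markers of ovary, oviduct and uterus 6 were higher and 2 lower, with a mean level of 7.12 to 7.38 on knockout arrays and 6.29 to 7.30 on control arrays. The lowest was control 3, where Greb1 read 4.92 and Foxl2 was not low. The mesothelial mean ran from 8.09 on knockout 6 to 9.45 over the knockout arrays and from 8.92 to 9.33 over the control arrays. On knockout 6 Krt8 and Krt18 were above controls 2 and 3. The table holds no detection calls, so none of these markers can be called absent.

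The size of the differences moved with single arrays. With each array left out in turn, the Lep difference ran from 0.34 without control 4 to 0.74 without control 3, and that of Adipoq from -0.07 to -0.03. Retn ran from -0.25 to -0.06, Rbp4 from -0.37 to -0.12 and Rarres2 from -0.37 to -0.07. These 5 genes kept their sign. Nampt ran from -0.09 to 0.04, Apln from -0.17 to 0.24 and Retnla from -0.26 to 0.09, crossing 0. The arrays also fall into a pair of sets by the lower quartile of their values, knockouts 6 and 8 with controls 1 and 2, and knockouts 9 and 10 with controls 3 and 4. Within the set of controls 1 and 2 the difference was 0.66 for Lep, -0.24 for Retn, -0.32 for Rbp4, -0.27 for Rarres2 and -0.01 for Retnla. Within the set of controls 3 and 4 it was 0.39 for Lep, -0.06 for Retn, -0.05 for Rbp4, -0.18 for Rarres2 and -0.27 for Retnla. With 2 arrays per group in a set, none of these passed.

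**Figure D5:**
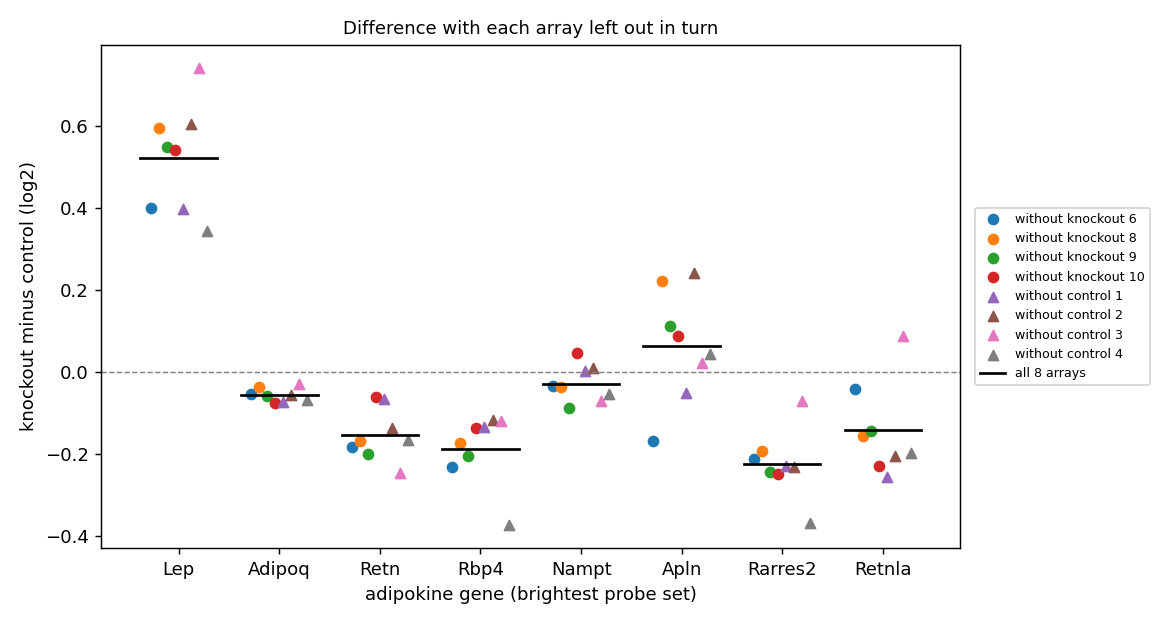
Knockout minus control (log2, vertical axis) of each adipokine with each array left out in turn (circles: a knockout left out; triangles: a control left out) and with all 8 arrays (black line). Lep stays above 0 between 0.34 and 0.74, Adipoq, Retn, Rbp4 and Rarres2 stay below 0, and Nampt, Apln and Retnla cross it.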

How the data were processed

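RNA was extracted with Trizol, amplified and biotin-labelled per the labels' protocols and hybridised to Affymetrix mouse expression arrays. Per the submitters' processing notes, the deposited log2 values were made with RMA (version not given in the sources used here); they carry no detection calls and bright signals may be compressed. Affymetrix's own 64 controls were not tested; 34945 of the others had 1 symbol, 932 several and 9160 none. Each gene was taken by its brightest probe set. The groups were compared by limma 3.58.1 in R 4.3.3 (lmFit, eBayes, genotype as the only term), p-values being adjusted over all 18193 genes by Benjamini and Hochberg's method, threshold 0.05; other probe sets were adjusted over 45037 probe sets. Intervals are 95% and not adjusted for the number of genes. The members, lists and alternatives were chosen with earlier results of these data known. Named were the 8 genes, for each the 3 genes of highest Pearson r among genes above the median level, and up to 3 genes per list with the smallest unadjusted p; Fabp4 and Pex5 were added as checks. The liver, neutrophil, macrophage, fibroblast, endothelium, mesothelium, eosinophil, red blood cell, epididymis and ovary lists served as marker lists. On simulated data with the spreads of these arrays, 18193 genes and 4 against 4 arrays, the limma step called 22 of 50 genes changed 1.5-fold, 39 of 50 changed 2-fold, 43 of 50 changed 3-fold and 48 of 50 changed 4-fold, with 6 false calls. Many changed genes ease the adjusted threshold in such data, whereas 0 genes passed it on these arrays. Lep and Apln, with within-group SDs of 0.43 and 0.44, also spread more than most bright genes. These rates therefore do not give the chance of calling a changed adipokine. Figures were drawn with matplotlib 3.10.9. The labels do not state whether each array was a separate animal, and a p-value here refers to the spread among arrays, which may be technical; their number limits the precision.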

Additional observations from a re-analysis of the deposited data

Results flagged for a closer look

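Rbp4 on control 4 read 12.10, far below the other 3 controls, which lay between 12.82 and 12.87. On the same array the mean of the neutrophil markers was at its highest and that of the adipocyte identity genes at its lowest. Control 4 also had the largest 3' excess of pyruvate carboxylase, the RNA integrity control, at 4.83. The excess was 4.65 on knockout 9, where Rbp4 read 12.53, and 3.97 on control 1, where Rbp4 read 12.82. Retnla on control 3 read 13.70, above the other controls, which lay between 12.67 and 12.84; the same array had the highest mean of alternatively activated macrophage markers. Each was singled out by Dixon's test of the array farthest from the rest of its group, applied to 24 groups of 4 values (12 probe sets in 2 groups), of which 2 were past its 95% limit. Chance gives about 1 in 20 such groups. The part of the marker genes or of RNA integrity in either value was not tested.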

How the results depend on the processing

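The count of genes past the adjusted threshold was 0 under every alternative run, with 244 to 1566 genes at an unadjusted p under 0.05, and 0 of 164 alternative results for the 8 adipokines passed (limma adjusted p, or an exact permutation test, two-sided, with 70 possible arrangements, where the smallest p of the 8 genes was 0.143, for Adipoq, and the smallest the design allows is 0.0286). Lep, Adipoq, Retn, Rbp4 and Rarres2 kept their direction throughout. Nampt turned to 0.038 with its probe sets averaged, 0.11 with probe set 1455320_at, 0.034 with 1448607_at and 0.051 within the set of knockouts 9 and 10 and controls 3 and 4. Leaving out 1 array gave -0.088 to 0.045 for Nampt, -0.17 to 0.24 for Apln and -0.26 to 0.088 for Retnla. Array weights gave -0.057 for Apln. The cause of these turns was not tested beyond the array or probe set named. Values close to the table's top, as for Adipoq and Retn, limit what a change in them can show. No paired analysis was possible because knockout and control arrays share no replicate number.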
